A study of Mus musculus with 10 samples.

Results

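The genes described are 10 regulators of the G1 phase of the cell cycle, followed by RNA sequencing in mouse liver tumours and normal liver. They are the 3 D-type cyclins (Ccnd1, Ccnd2 and Ccnd3), cyclin E1 (Ccne1), the Cip/Kip inhibitors (Cdkn1a, Cdkn1b and Cdkn1c) and the Ink4 group (Cdkn2a, Cdkn2b and Cdkn2c). They were taken by symbol from a deposited table of 56748 genes, in which each of the 10 symbols occurred in 1 row. The libraries came from 3 Akt/Nras/Foxo1AAA tumours, 3 Akt/Nras tumours and 4 normal livers. All mice were of wild-type FVB background, and the tumours, a model of hepatocellular carcinoma, were raised by injecting DNA for the named genes through the tail vein under pressure, which loads plasmid mainly into hepatocytes. Foxo1AAA is the name used for FOXO1 whose AKT phosphorylation sites are changed to alanine, which leaves the factor in the nucleus when AKT is active. The sample titles write this group as Akt/Nras/FoxoAAA. The labels give neither the animals' age, nor the age of the tumours, nor the species of the injected genes, and they do not say whether the replicates are separate mice, so the p-values measure the spread between these libraries.

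D-type cyclins carry growth signals to the kinases CDK4 and CDK6, and cyclin E then activates CDK2, so that the retinoblastoma protein releases E2F factors and cells enter S phase. Cip/Kip proteins bind cyclin-CDK complexes of G1 and S phase, whereas Ink4 proteins bind CDK4 and CDK6 and keep D-type cyclins off them. In the resting liver hepatocytes are out of the cycle, and Ccnd1 and Cdkn1a are known as genes that turn on during liver regeneration. FOXO factors are known to activate Cdkn1b and to repress D-type cyclins in several cell types, and AKT, in turn, inactivates FOXO.

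The promoters of the genes that differed most from normal liver are shown first, with that of Cdkn1b, to give the sequence context of these genes. The values are per gene and are not tied to any 1 start site. RefSeq promoter windows on GRCm38.p6 were at hand for 7 of the 10 genes, in 11 windows, and the 250 bases before each start were searched on both strands. Capitals mark motifs that the search found, and the others searched are named after the sequences. Cdkn1a has 2 starts on the plus strand of chromosome 17, and the distal window, chr17:29090729-29090978, holds a p53 response element in capitals at positions -51 to -32 from its start. The proximal window, chr17:29093519-29093768, holds 2 GC boxes.
Cdkn1a, distal start: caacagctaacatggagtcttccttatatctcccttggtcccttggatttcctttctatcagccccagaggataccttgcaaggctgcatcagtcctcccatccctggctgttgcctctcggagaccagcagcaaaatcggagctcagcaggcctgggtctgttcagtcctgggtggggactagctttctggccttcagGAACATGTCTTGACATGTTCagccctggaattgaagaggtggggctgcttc
Cdkn1a, proximal start: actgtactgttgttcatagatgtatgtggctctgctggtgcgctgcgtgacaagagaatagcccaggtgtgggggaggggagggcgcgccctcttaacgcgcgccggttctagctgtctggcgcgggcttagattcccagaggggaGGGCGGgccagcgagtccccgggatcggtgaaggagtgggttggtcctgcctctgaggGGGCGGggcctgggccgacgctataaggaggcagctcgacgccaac
The Cdkn2a and Cdkn2b windows lie on the minus strand of chromosome 4. Cdkn2a has a start for the p19Arf transcript, chr4:89294620-89294869, with 2 GC boxes in capitals, and a start for the p16Ink4a transcript, chr4:89282193-89282442, with none of the motifs. The Cdkn2b window, chr4:89311033-89311282, holds a cyclic AMP response element (CRE) in capitals at -46 to -39.
Cdkn2a, p19Arf start: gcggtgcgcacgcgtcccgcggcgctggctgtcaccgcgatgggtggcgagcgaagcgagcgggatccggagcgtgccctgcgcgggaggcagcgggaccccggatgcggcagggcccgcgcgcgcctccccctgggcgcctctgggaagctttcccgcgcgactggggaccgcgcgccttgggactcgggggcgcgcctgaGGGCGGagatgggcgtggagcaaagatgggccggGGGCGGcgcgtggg
Cdkn2a, p16Ink4a start: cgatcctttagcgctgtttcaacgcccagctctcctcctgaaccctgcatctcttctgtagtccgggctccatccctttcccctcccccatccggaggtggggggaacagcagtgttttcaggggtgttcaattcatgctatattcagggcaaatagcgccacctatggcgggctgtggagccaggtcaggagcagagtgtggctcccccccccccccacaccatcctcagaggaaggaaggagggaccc
Cdkn2b: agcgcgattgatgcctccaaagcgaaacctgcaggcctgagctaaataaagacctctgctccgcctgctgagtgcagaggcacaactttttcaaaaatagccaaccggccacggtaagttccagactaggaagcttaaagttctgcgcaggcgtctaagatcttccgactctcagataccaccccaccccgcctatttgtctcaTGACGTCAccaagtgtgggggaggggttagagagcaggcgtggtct
The Cdkn1b window, chr6:134920151-134920400 on the plus strand, is given because Cdkn1b is the member long tied to FOXO factors. Its capitals mark 1 GC box and 2 CCAAT boxes.
Cdkn1b: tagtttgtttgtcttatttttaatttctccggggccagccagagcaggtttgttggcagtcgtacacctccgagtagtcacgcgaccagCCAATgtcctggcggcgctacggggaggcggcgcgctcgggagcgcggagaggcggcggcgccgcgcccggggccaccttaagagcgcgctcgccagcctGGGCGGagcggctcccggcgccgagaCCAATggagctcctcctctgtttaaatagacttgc

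The letters searched were GTAAACA for FOXO, TATAAA for the TATA box, GGGCGG for the GC box, CCAAT for the box of that name, TGACTCA for AP-1, TGACGTCA for the CRE, CACGTG for the E-box and TTTCGCGC or TTTGGCGC for E2F. None of these overlapped in the printed windows. The GC box was in 7 of the 11 windows, against 33% of all 32536 promoter windows of that length. The CRE was in 1 window (1.56% of all windows), CCAAT in 2 (33.8%) and the FOXO letters in 1, that of Ccnd3 at -243 to -237 (3.17%). The TATA box (12.3% of all windows), AP-1 (4.45%), the E-box (6.04%) and E2F (0.661%) were in none. The p53 element was searched by its consensus with up to 1 mismatch, a rule chosen after the Cdkn1a window had been read, and 0.0461% of all windows held it. The Cdkn1b window did not hold the FOXO letters. A match or its absence describes these windows only.

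Values are fragments per kilobase and per 1e6 (FPKM), as deposited, where the per-library divisor was not the number of reads counted. The whole reads behind them, recovered from FPKM and gene length, numbered 15.4 to 20.7 M per Akt/Nras/Foxo1AAA library, 16.2 to 21.3 M per Akt/Nras library and 13.6 to 17.5 M per normal liver library. Differences are in log2(FPKM + 1) from 1 limma fit over 12439 genes, with Benjamini-Hochberg adjusted p-values, and genes under 0.05 by these were called. For weakly expressed genes that scale makes changes look smaller, and folds are ratios of mean FPKM. The check of the injected genes gave Foxo1 at 95.4 ± 25.7 FPKM in Akt/Nras/Foxo1AAA tumours, 5.81 ± 0.381 in Akt/Nras tumours (SD, n = 3 each) and 7.18 ± 0.572 in normal liver (SD, n = 4). Akt1 averaged 880 FPKM in either tumour group, against 21.1 in normal liver. Nras averaged 9.23 FPKM in Akt/Nras/Foxo1AAA tumours, 10.4 in Akt/Nras tumours and 5.33 in normal liver. The summed FPKM of a library was 413812 to 444893 in Akt/Nras/Foxo1AAA tumours, 349619 to 381653 in Akt/Nras tumours, against 692010 to 743203 in normal liver. Rescaling all libraries to 1 total moved the median difference of all genes to 0.47 for Akt/Nras/Foxo1AAA tumours and 0.70 for Akt/Nras tumours, each set against normal liver, and to -0.21 between the tumour groups. The members are therefore also given relative to those medians where it matters.

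Of the 10 genes, 7 were higher and 1 lower in Akt/Nras/Foxo1AAA tumours than in normal liver, where 63.3% of all tested genes were called (26.8% higher and 36.5% lower). In Akt/Nras tumours 8 were higher and 1 lower, where 69% of all genes were called (31.1% higher and 37.9% lower). The libraries did not overlap in 8 of the 10 genes between Akt/Nras/Foxo1AAA tumours and normal liver (65.4% of all genes) and in 9 between Akt/Nras tumours and normal liver (68.3%). None was called between the tumour groups, where 12.1% of all genes were called (7.93% higher and 4.13% lower in Akt/Nras/Foxo1AAA tumours). All 10 passed the filter of 1 FPKM in 3 libraries. However, 4 of them passed only through the tumours, namely Ccnd2, Cdkn2a and Cdkn2b, which were under 1 FPKM in every normal liver, and Cdkn1a, which reached it in 1 normal liver, so the counts of higher members are a description and not support. The median difference over the 10 genes was 1.76 for Akt/Nras/Foxo1AAA tumours and 1.58 for Akt/Nras tumours against normal liver. Over all genes tested it was -0.09 and -0.07 in turn. Those 4 genes enter the median of the 10 too, so it is likewise a description and not support. At equal totals the split of all genes turned round, with 7584 higher and 1681 lower in Akt/Nras/Foxo1AAA tumours than in normal liver (3330 and 4544 as deposited), and 8609 higher and 1713 lower in Akt/Nras tumours (3871 and 4716 as deposited). Between the tumour groups it was 656 higher and 3234 lower in Akt/Nras/Foxo1AAA tumours (986 and 514 as deposited).

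**Figure D1:**
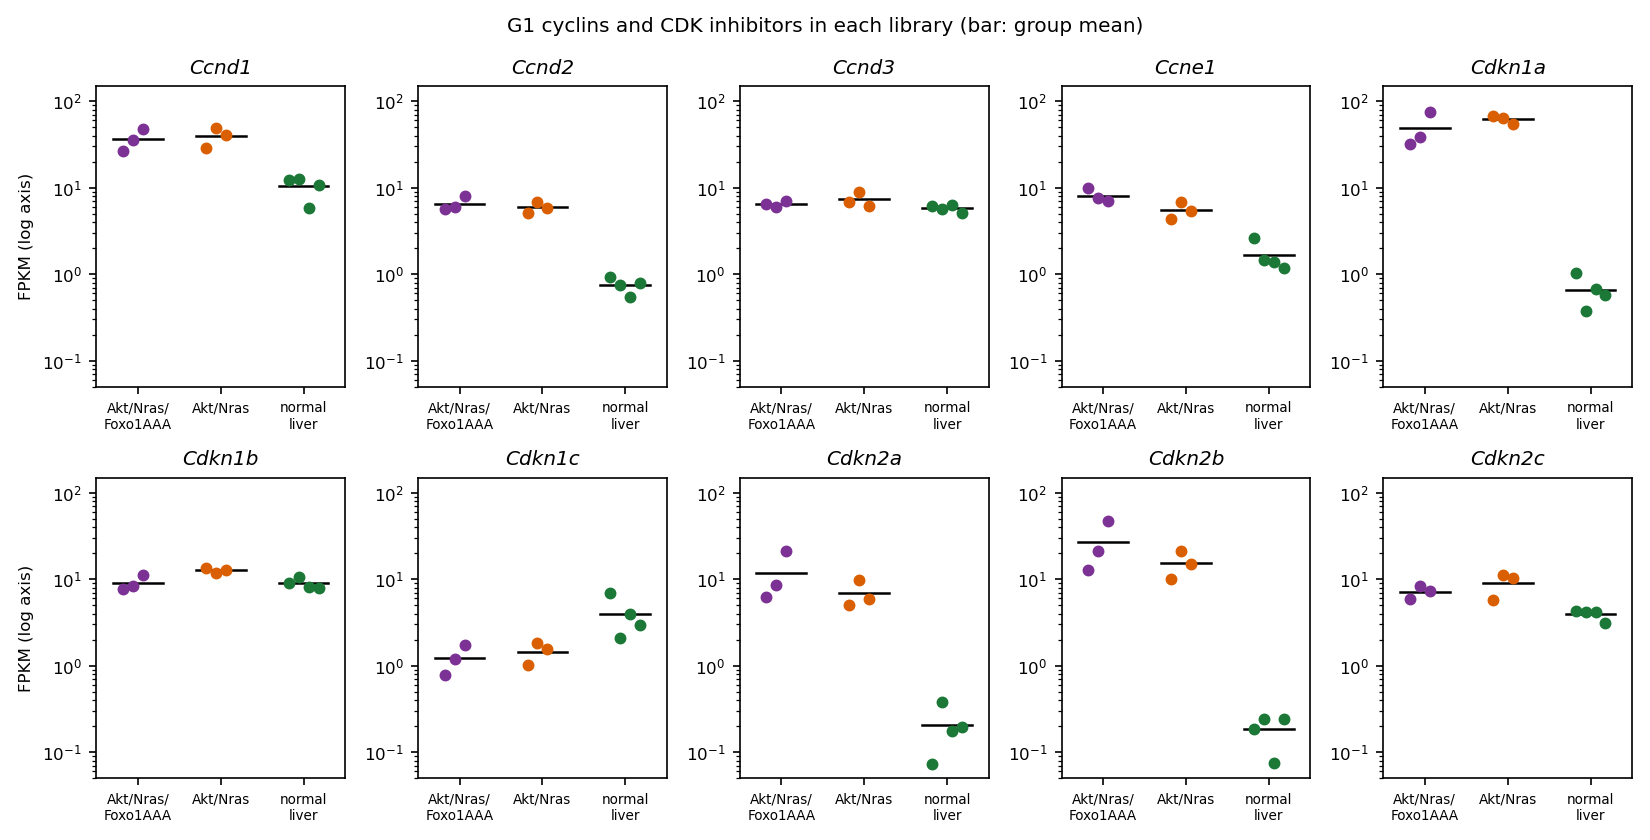
FPKM of the 10 genes on a log axis, 1 point per library (3 Akt/Nras/Foxo1AAA tumours, 3 Akt/Nras tumours, 4 normal livers), with bars at group means. Cdkn1a, Cdkn2a and Cdkn2b lie far above normal liver in all 6 tumours, Ccnd3 and Cdkn1b lie close to it, and Cdkn1c lies below it.

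Ccnd1 and Ccnd2 were higher in both tumour groups, and Ccnd3 was not called. Ccnd1, the D-type cyclin known to rise in the regenerating liver, had 26.4, 35.5 and 47.5 FPKM in Akt/Nras/Foxo1AAA tumours, 29.1, 48.9 and 40.4 FPKM in Akt/Nras tumours, and 12.4, 12.7, 5.77 and 10.8 FPKM in normal liver. Every tumour was above every normal liver, and the tumour groups overlapped. Relative to normal liver Ccnd1 was 3.50-fold higher in Akt/Nras/Foxo1AAA tumours (log2 difference 1.73 ± 0.28 SE, limma adjusted p = 0.000297), and in Akt/Nras tumours it was 3.79-fold higher (1.85 ± 0.28, adjusted p = 0.000146). Ccnd1 overlaps LTO1 on the other strand, which had at most 386 reads in a library, and whether the counting used strand is not stated.

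Ccnd2, a second D-type cyclin, was the scarcest of the 3 in normal liver. It had 5.64, 5.96 and 7.93 FPKM in Akt/Nras/Foxo1AAA tumours, 5.05, 6.89 and 5.81 FPKM in Akt/Nras tumours, and 0.935, 0.758, 0.544 and 0.784 FPKM in normal liver. Even the lowest tumour stood far above the highest normal liver. Relative to normal liver Ccnd2 was 8.62-fold higher in Akt/Nras/Foxo1AAA tumours (2.09 ± 0.13, limma adjusted p = 4.66e-07), and in Akt/Nras tumours it was 7.84-fold higher (1.97 ± 0.13, adjusted p = 3.62e-07).

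Ccnd3 had 6.46, 5.96 and 7.04 FPKM in Akt/Nras/Foxo1AAA tumours, 6.90, 8.92 and 6.15 FPKM in Akt/Nras tumours, and 6.15, 5.64, 6.28 and 5.11 FPKM in normal liver. The 3 groups overlapped. The difference from normal liver was 0.14 in Akt/Nras/Foxo1AAA tumours (95% interval -0.12 to 0.40, limma adjusted p = 0.31) and 0.28 in Akt/Nras tumours (0.02 to 0.54, adjusted p = 0.0515). The call depended on the scaling, since at equal totals Ccnd3 was higher by 0.76 in Akt/Nras/Foxo1AAA tumours (adjusted p = 0.000607) and by 1.13 in Akt/Nras tumours (2.14e-05). Relative to the median of all genes at equal totals, the difference was 0.29 in Akt/Nras/Foxo1AAA tumours and 0.42 in Akt/Nras tumours. Ccnd3 overlaps Bysl on the other strand, which had at most 582 reads in a library.

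The mix of D-type cyclins, which no scaling can change, differed from normal liver in every tumour. The summed FPKM of the 3 genes was 49.4 ± 12.1 in Akt/Nras/Foxo1AAA tumours, 52.7 ± 11.8 in Akt/Nras tumours (SD, n = 3 each) and 17.0 ± 3.15 in normal liver (SD, n = 4). Ccnd2 made up 13.3 ± 1.18% of it in Akt/Nras/Foxo1AAA tumours, 11.3 ± 0.841% in Akt/Nras tumours and 4.45 ± 0.378% in normal liver, with no overlap between tumours and normal liver. Ccnd3 made up 13.6 ± 2.88% in Akt/Nras/Foxo1AAA tumours, 14.1 ± 2.54% in Akt/Nras tumours and 35.4 ± 9.68% in normal liver, and the tumours were again apart from normal liver. Ccnd1 was the most abundant of the 3 in all tumours and in 3 of the 4 normal livers, and in normal liver replicate 3, where Ccnd1 was lowest, Ccnd3 had the larger share.

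Ccne1 encodes the cyclin that activates CDK2 at the end of G1. It had 9.83, 7.55 and 6.97 FPKM in Akt/Nras/Foxo1AAA tumours, 4.34, 6.80 and 5.41 FPKM in Akt/Nras tumours, and 2.60, 1.47, 1.37 and 1.19 FPKM in normal liver. The 3 groups did not overlap, with Akt/Nras/Foxo1AAA tumours on top, although the lowest of these and the highest Akt/Nras tumour lay close together. Relative to normal liver Ccne1 was 4.89-fold higher in Akt/Nras/Foxo1AAA tumours (1.79 ± 0.19, limma adjusted p = 1.52e-05), and in Akt/Nras tumours it was 3.33-fold higher (1.30 ± 0.19, adjusted p = 0.000112). Between the tumour groups the difference was 0.49 (95% interval 0.04 to 0.94), which did not pass the adjustment over all genes (limma adjusted p = 0.141).

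Cdkn1a encodes p21, the Cip/Kip inhibitor best known as a target of p53. It had 32.0, 38.1 and 75.7 FPKM in Akt/Nras/Foxo1AAA tumours, 68.1, 64.1 and 54.8 FPKM in Akt/Nras tumours, and 1.03, 0.376, 0.676 and 0.575 FPKM in normal liver. It was at rank 1 of the 10 by mean FPKM in both tumour groups, against rank 8 in normal liver, and tumours and normal liver were far apart. Relative to normal liver Cdkn1a was 73.1-fold higher in Akt/Nras/Foxo1AAA tumours (4.81 ± 0.25, limma adjusted p = 1.46e-07), and in Akt/Nras tumours it was 93.7-fold higher (5.26 ± 0.25, adjusted p = 4.31e-08). Normal liver held 96 Cdkn1a reads in all 4 libraries. The ratio of reads to normal liver was scaled by the library divisors behind the deposited FPKM. So scaled, it was 67.4 in Akt/Nras/Foxo1AAA tumours (exact 95% interval 55.1 to 83.2) and 89.3 in Akt/Nras tumours (73.0 to 110.3). These intervals cover counting error only, not the choice of scaling.

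Akt/Nras/Foxo1AAA replicate 3 stood apart from its group in Cdkn1a. With all libraries the difference between the tumour groups was -0.45 (95% interval -1.04 to 0.15, limma adjusted p = 0.30). Without that library it was -0.81 (adjusted p = 0.0119).

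Cdkn1b encodes p27, which is regulated largely through the stability of the protein. It had 7.62, 8.36 and 11.1 FPKM in Akt/Nras/Foxo1AAA tumours, 13.5, 11.7 and 12.9 FPKM in Akt/Nras tumours, and 9.02, 10.6, 8.24 and 7.90 FPKM in normal liver. Akt/Nras tumours lay above both other groups without overlap, whereas Akt/Nras/Foxo1AAA tumours overlapped normal liver. Cdkn1b was 1.42-fold higher in Akt/Nras tumours than in normal liver (0.47 ± 0.13, limma adjusted p = 0.00815). Between Akt/Nras/Foxo1AAA tumours and normal liver the difference was 0.01 (95% interval -0.28 to 0.29, adjusted p = 0.973), and at equal totals it was 0.65 (adjusted p = 0.00147), or 0.19 relative to the median of all genes.

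Between the tumour groups Cdkn1b came nearest to a call, with a difference of -0.46 (95% interval -0.77 to -0.15, limma adjusted p = 0.0563). It passed the threshold under 5 other settings, with adjusted p-values from 0.00343 to 0.0403. It also passed without normal liver replicate 2 (0.0483) and without Akt/Nras/Foxo1AAA replicate 3 (-0.61, 0.012). In the other settings and with other libraries left out it did not, with adjusted p-values up to 0.195.

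Cdkn1c encodes p57, an imprinted Cip/Kip inhibitor, and was the only member lower in tumours. It had 0.784, 1.21 and 1.72 FPKM in Akt/Nras/Foxo1AAA tumours, 1.01, 1.82 and 1.54 FPKM in Akt/Nras tumours, and 6.95, 2.08, 4.00 and 2.95 FPKM in normal liver. All tumours were under all normal livers, but the normal livers spread widely. Relative to normal liver Cdkn1c was 3.23-fold lower in Akt/Nras/Foxo1AAA tumours (-1.09 ± 0.28, limma adjusted p = 0.00635), and in Akt/Nras tumours it was 2.74-fold lower (-0.95 ± 0.28, adjusted p = 0.0123). At equal totals neither difference was called, at -0.60 in Akt/Nras/Foxo1AAA tumours (adjusted p = 0.0823) and -0.28 in Akt/Nras tumours (0.378). Relative to the median of all genes they were -1.07 in Akt/Nras/Foxo1AAA tumours and -0.98 in Akt/Nras tumours. Without Akt/Nras replicate 1 the call in Akt/Nras tumours was lost at an adjusted p of 0.0501.

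The make-up of the Cip/Kip family differed between tumours and normal liver. Its summed FPKM was 58.9 ± 26.0 in Akt/Nras/Foxo1AAA tumours, 76.5 ± 6.78 in Akt/Nras tumours (SD, n = 3 each) and 13.6 ± 2.39 in normal liver (SD, n = 4). Cdkn1a made up 81.5 ± 3.44% of it in Akt/Nras/Foxo1AAA tumours, 81.4 ± 1.91% in Akt/Nras tumours and 4.81 ± 1.36% in normal liver. Cdkn1b held 16.3% in Akt/Nras/Foxo1AAA tumours, 16.7% in Akt/Nras tumours and 66.8% in normal liver. Cdkn1c held 2.14% in Akt/Nras/Foxo1AAA tumours, 1.93% in Akt/Nras tumours and 28.4% in normal liver.

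Cdkn2a encodes p16Ink4a and p19Arf from separate starts, and p19Arf is known to stabilise p53. The gene-level values do not separate the products. It had 6.16, 8.50 and 21.1 FPKM in Akt/Nras/Foxo1AAA tumours, 5.08, 9.84 and 5.89 FPKM in Akt/Nras tumours, and 0.0729, 0.380, 0.178 and 0.194 FPKM in normal liver, which rest on 1, 4, 2 and 2 reads. Every tumour had at least 98 reads, and the tumour groups overlapped. The difference from normal liver was 3.25 ± 0.33 in Akt/Nras/Foxo1AAA tumours (limma adjusted p = 1.27e-05) and 2.68 ± 0.33 in Akt/Nras tumours (3.72e-05). As a ratio of reads to normal liver, scaled as for Cdkn1a, it was 57.2 in Akt/Nras/Foxo1AAA tumours (exact 95% interval 29.9 to 126, counting error only). In Akt/Nras tumours it was 35.2 (18.4 to 77.4). Without Akt/Nras/Foxo1AAA replicate 3 the ratio in that group was 37.2.

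Cdkn2b encodes p15Ink4b, which is known for its response to TGF-beta. It had 12.7, 21.3 and 47.1 FPKM in Akt/Nras/Foxo1AAA tumours, 10.2, 21.4 and 14.9 FPKM in Akt/Nras tumours, and 0.184, 0.241, 0.0752 and 0.245 FPKM in normal liver, where each library held 1 to 3 reads. The tumours were all far above normal liver and the tumour groups overlapped. The difference from normal liver was 4.37 ± 0.36 in Akt/Nras/Foxo1AAA tumours (limma adjusted p = 2.66e-06) and 3.74 ± 0.36 in Akt/Nras tumours (5.04e-06). The ratio of reads to normal liver, scaled as for Cdkn1a, was 139 in Akt/Nras/Foxo1AAA tumours (exact 95% interval 75.2 to 289.5, counting error only). In Akt/Nras tumours it was 84.6 (45.9 to 177). Without Akt/Nras/Foxo1AAA replicate 3 the ratio in that group was 92.2.

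In the deposited table Cdkn2a (chromosome 4, 89192708 to 89212890) and Cdkn2b (89224536 to 89229276) lie on the minus strand 11645 bases apart, on a build that the sources used here do not name. The ratio of Cdkn2b to Cdkn2a FPKM was 2.06 to 2.51 in Akt/Nras/Foxo1AAA tumours and 2.005 to 2.52 in Akt/Nras tumours, so the genes kept nearly the same proportion in all 6 tumours although their levels spread several-fold. In normal liver it was 0.422 to 2.53, where it rests on few reads. Among the neighbours, Mtap, which encodes an enzyme of methionine salvage, averaged 11.5 FPKM in Akt/Nras/Foxo1AAA tumours, 11.3 in Akt/Nras tumours and 7.45 in normal liver (Akt/Nras against normal liver, 0.54, limma adjusted p = 0.0023). Dmrta1, on the other side, averaged under 0.07 FPKM in each group. The non-coding gene Gm12610, which runs over Cdkn2b on the other strand, had at most 4 reads in a library.

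**Figure D2:**
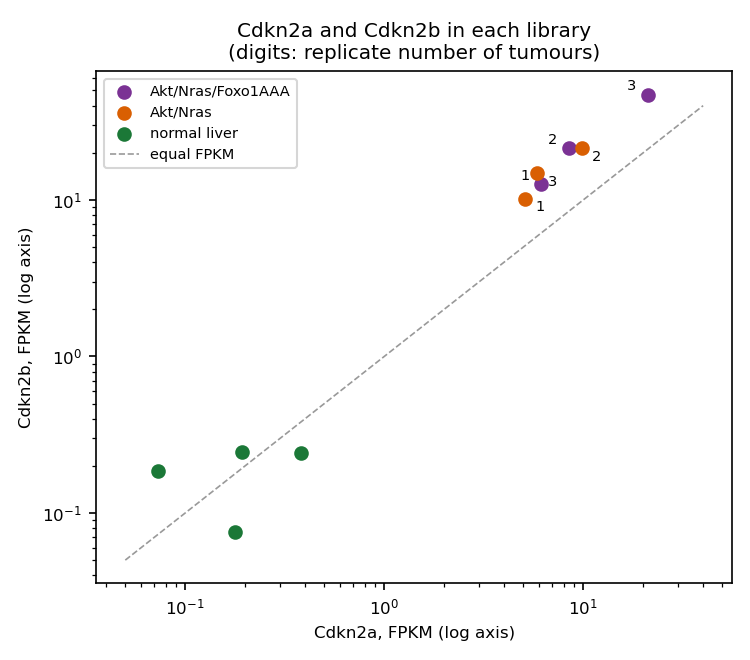
Cdkn2b against Cdkn2a in each library, in FPKM on log axes, with the line of equal FPKM. The 6 tumours lie above the line in a narrow band, at ratios of 2.005 to 2.52, and the 4 normal livers lie scattered about it at the low end.

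Cdkn2c encodes p18Ink4c, which was well detected in normal liver. It had 5.89, 8.37 and 7.22 FPKM in Akt/Nras/Foxo1AAA tumours, 5.75, 11.2 and 10.4 FPKM in Akt/Nras tumours, and 4.29, 4.19, 4.20 and 3.08 FPKM in normal liver. The tumours were all above normal liver, by a small margin in the lowest ones. Relative to normal liver Cdkn2c was 1.82-fold higher in Akt/Nras/Foxo1AAA tumours (0.72 ± 0.20, limma adjusted p = 0.00885), and in Akt/Nras tumours it was 2.31-fold higher (0.99 ± 0.20, adjusted p = 0.00108).

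The Ink4 group summed to 46.1 ± 26.3 FPKM in Akt/Nras/Foxo1AAA tumours, 31.6 ± 10.7 in Akt/Nras tumours (SD, n = 3 each) and 4.34 ± 0.562 in normal liver (SD, n = 4). Cdkn2c was 18.4 ± 7.73% of that sum in Akt/Nras/Foxo1AAA tumours and 29.0 ± 3.86% in Akt/Nras tumours, against 90.8 ± 4.05% in normal liver. Cdkn2b took the largest share in every tumour, at 56.5 ± 5.59% in Akt/Nras/Foxo1AAA tumours and 48.9 ± 1.47% in Akt/Nras tumours, against 4.42 ± 2.19% in normal liver. The ratio of the 6 inhibitors to the 4 cyclins, by summed FPKM, was 1.76 ± 0.534 in Akt/Nras/Foxo1AAA tumours, 1.90 ± 0.333 in Akt/Nras tumours and 0.981 ± 0.186 in normal liver. No normal liver reached the lowest tumour in it (1.35 in Akt/Nras/Foxo1AAA tumours, against 1.24 in the highest normal liver).

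**Figure D3:**
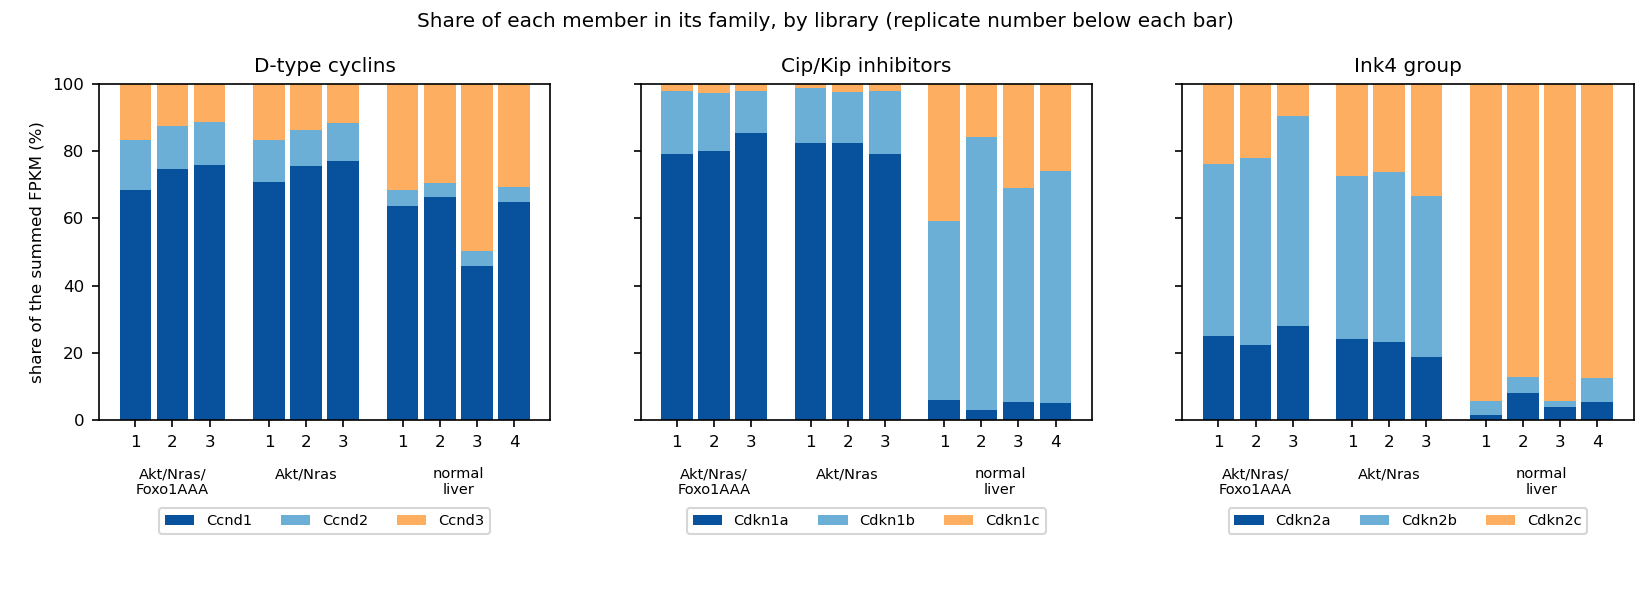
Share of each gene in the summed FPKM of its family, in percent, 1 bar per library (replicate number below). Cdkn1a and Cdkn2b take the largest shares of their families in the 6 tumours, and Cdkn1b and Cdkn2c in the 4 normal livers.

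Ordered by mean FPKM, Cdkn1a, Ccnd1 and Cdkn2b led in both tumour groups and Cdkn1c was last. In Akt/Nras/Foxo1AAA tumours every gene overlapped the next in the order, except that Ccnd3 and Cdkn1c did not. In Akt/Nras tumours Cdkn1a (62.4 FPKM) did not overlap Ccnd1 (39.5), and Ccnd1 did not overlap Cdkn2b (15.5). Cdkn2b and Cdkn1b overlapped, Cdkn1b and Cdkn2c did not, and Cdkn1c was apart at the bottom. In normal liver the order was Ccnd1, Cdkn1b, Ccnd3, Cdkn1c, Cdkn2c, Ccne1, Ccnd2, Cdkn1a, Cdkn2a and Cdkn2b, and the last 4 overlapped one after another. Cdkn1a stood at the 91.9th percentile of the 12439 genes by mean in Akt/Nras/Foxo1AAA tumours and at the 94.3rd in Akt/Nras tumours, against the 8.69th in normal liver.

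Libraries of a group differed in several members at once. Akt/Nras/Foxo1AAA replicate 3 was the highest of its group in 8 of the 10 genes, the exceptions being Ccne1, in which it was lowest, and Cdkn2c. That library also had the most Foxo1 and Akt1, with 124.9 and 1198 FPKM, against 83.3 and 670 in replicate 1 and 77.9 and 771 in replicate 2. Akt/Nras replicate 1 was the lowest of its group in 7 genes and the highest in Cdkn1a and Cdkn1b. The summed FPKM of 10 mitosis genes was 33.9 in that library, against 87.3 and 83.6 in the other Akt/Nras tumours. In normal liver replicate 1, the highest in Ccnd2, Ccne1, Cdkn1a, Cdkn1c and Cdkn2c, the mitosis sum was 28.2, against 4.30 to 12.0 in the other normal livers. The part of these differences between libraries in the results above was not tested beyond leaving out each library.

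Between the tumour groups, none of the 10 genes was called at an adjusted p under 0.05 in limma, 2 (Ccne1 and Cdkn1b) had an unadjusted p under 0.05, as had 29% of all genes tested, and voom on the recovered reads called 1 (Cdkn1b). Libraries of the tumour groups did not overlap in those 2 genes, against 31.9% of all genes tested. For the rest, the intervals show what the 6 tumours leave possible. Ccnd1 differed by -0.12 (95% interval -0.78 to 0.54), Ccnd2 by 0.11 (-0.20 to 0.43) and Ccnd3 by -0.14 (-0.42 to 0.14). Cdkn1c differed by -0.14 (-0.82 to 0.53) and Cdkn2c by -0.27 (-0.75 to 0.20). Cdkn2a differed by 0.58 (-0.22 to 1.37) and Cdkn2b by 0.63 (-0.22 to 1.48). Without Akt/Nras/Foxo1AAA replicate 3 these differences were 0.10 and 0.14. At equal totals the sign of Ccnd2 turned, to -0.10, but relative to the median of all genes there it was 0.11.

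**Figure D4:**
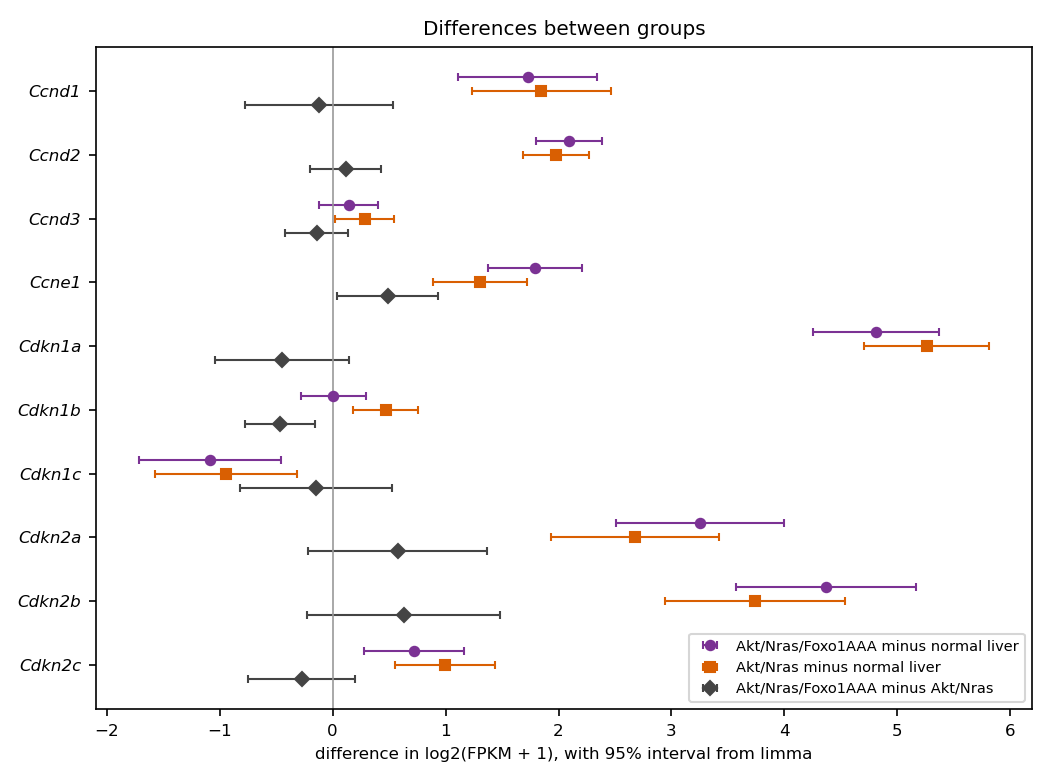
Differences in log2(FPKM + 1) of the 10 genes with 95% intervals from limma, for Akt/Nras/Foxo1AAA minus normal liver, Akt/Nras minus normal liver, and Akt/Nras/Foxo1AAA minus Akt/Nras. The estimates of the first 2 reach 3.74 to 5.26 in Cdkn1a and Cdkn2b. Those of the last lie between -0.46 and 0.63, with intervals that reach further.

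Other genes of the G1/S machinery were counted from lists, with each tumour group set against normal liver. Of all genes tested, 26.8% were called higher and 36.5% lower in Akt/Nras/Foxo1AAA tumours, and 31.1% and 37.9% in Akt/Nras tumours. At equal totals 7584 of all 12439 genes were higher and 1681 lower in Akt/Nras/Foxo1AAA tumours. In Akt/Nras tumours 8609 were higher and 1713 lower there. Among 7 CDK partners and regulators, 3 were higher and 1 lower in Akt/Nras/Foxo1AAA tumours, and 4 were higher and 1 lower in Akt/Nras tumours. At equal totals 6 were higher in Akt/Nras/Foxo1AAA tumours and 7 in Akt/Nras tumours, with none lower. Cdc25a, the phosphatase that activates CDK2, was 3.82-fold higher in Akt/Nras/Foxo1AAA tumours and 4.82-fold higher in Akt/Nras tumours. Cdk6, a partner of D-type cyclins, was 2.32-fold higher in Akt/Nras/Foxo1AAA tumours and 2.77-fold higher in Akt/Nras tumours. Ccnh, the cyclin of the CDK-activating kinase, differed by -0.44 in Akt/Nras/Foxo1AAA tumours and by -0.37 in Akt/Nras tumours on the log2 scale. At equal totals the sign turned, to 0.17 in Akt/Nras/Foxo1AAA tumours and 0.47 in Akt/Nras tumours. Both values stayed under the medians of all genes there, 0.47 and 0.70 in turn.

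Among 12 tested pocket proteins and E2F factors, 6 were higher and 3 lower in Akt/Nras/Foxo1AAA tumours, and 7 higher and 3 lower in Akt/Nras tumours. At equal totals 9 were higher and 1 lower in either group. All genes tested stood at 26.8% higher and 36.5% lower in Akt/Nras/Foxo1AAA tumours, and 31.1% and 37.9% in Akt/Nras tumours. Higher at equal totals were 7584 and 8609 of all 12439 genes in turn. E2f1, which drives S-phase genes, was 3.29-fold higher in Akt/Nras/Foxo1AAA tumours and 5.11-fold higher in Akt/Nras tumours. Rbl2, the pocket protein p130 of resting cells, was 2.77-fold lower in Akt/Nras/Foxo1AAA tumours and 2.73-fold lower in Akt/Nras tumours. Of 7 other G1/S cyclins and inhibitors, 1 was higher in Akt/Nras/Foxo1AAA tumours and 5 in Akt/Nras tumours, and at equal totals 6 were higher in Akt/Nras/Foxo1AAA tumours and 7 in Akt/Nras tumours. Ccng1, a p53 target, was 2.33-fold higher in Akt/Nras/Foxo1AAA tumours and 2.40-fold higher in Akt/Nras tumours. Ccna2, the cyclin of S phase, was 4.82-fold higher in Akt/Nras tumours. In Akt/Nras/Foxo1AAA tumours Ccna2 overlapped normal liver and was not called (1.79-fold, limma adjusted p = 0.188).

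Of 13 tested genes of cyclin and inhibitor turnover, 3 were higher and 4 lower in Akt/Nras/Foxo1AAA tumours, and 2 higher and 5 lower in Akt/Nras tumours. The shares called lower lie near those of all genes (36.5% and 37.9% in turn), as does the share higher in Akt/Nras/Foxo1AAA tumours (26.8%). The share higher in Akt/Nras tumours lies under the 31.1% of all genes. At equal totals 9 were higher and 1 lower in either group. Most of all 12439 genes were higher there too, 7584 in Akt/Nras/Foxo1AAA tumours and 8609 in Akt/Nras tumours. Cks1b, a cofactor in the breakdown of p27, was 2.07-fold higher in Akt/Nras/Foxo1AAA tumours and 2.96-fold higher in Akt/Nras tumours. Usp2, a deubiquitinase known to stabilise cyclin D1 in human cells, was 6.36-fold lower in Akt/Nras/Foxo1AAA tumours and 11.1-fold lower in Akt/Nras tumours, and stayed lower at equal totals.

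Genes downstream of G1 and upstream of it were counted in the same way. The shares of all genes were again 26.8% higher and 36.5% lower in Akt/Nras/Foxo1AAA tumours, and 31.1% and 37.9% in Akt/Nras tumours. Higher at equal totals were 7584 and 8609 of all 12439 genes in turn. Of 13 tested S-phase genes driven by E2F, 7 were higher and 2 lower in Akt/Nras/Foxo1AAA tumours, and 11 higher and 2 lower in Akt/Nras tumours. At equal totals 11 were higher in either group, with 1 lower in Akt/Nras/Foxo1AAA tumours and 0 in Akt/Nras tumours. Rrm2, a subunit of ribonucleotide reductase, was 3.07-fold higher in Akt/Nras/Foxo1AAA tumours and 7.51-fold higher in Akt/Nras tumours. Tk1, thymidine kinase, was 3.42-fold lower in Akt/Nras/Foxo1AAA tumours and 2.33-fold lower in Akt/Nras tumours. At equal totals it was still called lower in Akt/Nras/Foxo1AAA tumours (-0.92, limma adjusted p = 3.98e-05), but not in Akt/Nras tumours (-0.23, 0.0872). Of 9 tested mitosis genes, 4 were higher in Akt/Nras/Foxo1AAA tumours and 9 in Akt/Nras tumours, and at equal totals all 9 were higher in either group. Of 15 upstream regulators, 9 were higher and 2 lower in Akt/Nras/Foxo1AAA tumours, and 12 higher and 2 lower in Akt/Nras tumours. At equal totals 12 were higher in Akt/Nras/Foxo1AAA tumours and 13 in Akt/Nras tumours, with 2 lower in each. Klf6, a zinc finger factor, was 7.13-fold higher in Akt/Nras/Foxo1AAA tumours and 10.9-fold higher in Akt/Nras tumours. Cbx7, a Polycomb protein known to repress the Cdkn2a locus, was 5.76-fold lower in Akt/Nras/Foxo1AAA tumours and 5.71-fold lower in Akt/Nras tumours. Other Polycomb genes of the list went the other way. Bmi1 was called higher in both, 2.24-fold in Akt/Nras/Foxo1AAA tumours and 1.92-fold in Akt/Nras tumours. Ezh2 was called higher in Akt/Nras tumours (2.84-fold) but not in Akt/Nras/Foxo1AAA tumours (1.48-fold).

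Between the tumour groups no gene of these lists was higher in Akt/Nras/Foxo1AAA tumours. Lower were 1 of 12 pocket proteins and E2F factors (E2f5, 1.48-fold), 3 of 13 S-phase genes (led by Rrm2, 2.44-fold, and Rrm1, 1.88-fold) and 1 of 15 upstream regulators (Ezh2, 1.92-fold), and none in the other lists. Of all genes tested, 7.93% were called higher and 4.13% lower. At equal totals more were lower, among them 7 of 9 mitosis genes and 8 of 13 S-phase genes. There 3234 of all 12439 genes were called lower too, and the median difference of all genes was -0.21.

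The genes whose profile over the 10 libraries lay nearest to that of a member were named by the root mean square difference of centred log2(FPKM + 1) values. Nearest to Ccnd1 were Plcg2 (0.219), Rap1gap (0.241) and St6gal1 (0.243), and nearest to Ccnd2 were Frmd8 (0.0912), Wnk4 (0.124) and Cx3cl1 (0.136). Ly6c1 (0.200), Slc7a7 (0.217) and Napepld (0.233) lay nearest to Ccne1. Akt1 (0.288), which measures the injected gene together with the mouse's own, was nearest to Cdkn1a, followed by Sox4 (0.344) and Anxa2 (0.359). Nt5dc2 (0.238), Slc36a2 (0.260) and Hand2 (0.282) were nearest to Cdkn1c. For Cdkn2a the nearest pair was Ggta1 (0.362) and Snhg18 (0.384), and for Cdkn2b it was Tbx1 (0.389) and Phlda3 (0.390). This measure takes in the step between tumours and normal liver, and the other 3 members had group means too close together for the comparison.

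Marker genes of several cell types also differed between the groups. The summed FPKM of 5 hepatocyte markers was 28316 to 39898 in Akt/Nras/Foxo1AAA tumours, 23805 to 26561 in Akt/Nras tumours, against 65190 to 69442 in normal liver, and all 5 were lower in either tumour group. At equal totals 3 of the 5 were lower in Akt/Nras/Foxo1AAA tumours, with 1 higher, and 3 were lower in Akt/Nras tumours. The 5 cholangiocyte and progenitor markers summed to 2658 to 5383 FPKM in Akt/Nras/Foxo1AAA tumours, 4099 to 5796 in Akt/Nras tumours, against 16 to 24.1 in normal liver, and of the 4 tested 3 were higher in Akt/Nras/Foxo1AAA tumours and 4 in Akt/Nras tumours. Nearly all of that sum was Spp1, at 3953 FPKM on average in Akt/Nras/Foxo1AAA tumours, 5032 in Akt/Nras tumours and 16.9 in normal liver. Krt19 averaged 1.77 FPKM in Akt/Nras/Foxo1AAA tumours, which overlapped normal liver (0.894), and 16.4 in Akt/Nras tumours, which did not. Krt7 averaged 0.254 FPKM in Akt/Nras/Foxo1AAA tumours, 1.62 in Akt/Nras tumours and 0.238 in normal liver. Epcam averaged 8.01 FPKM in Akt/Nras/Foxo1AAA tumours, 26.6 in Akt/Nras tumours and 1.09 in normal liver. Sox9 averaged 27.8 FPKM in Akt/Nras/Foxo1AAA tumours, 39.2 in Akt/Nras tumours and 0.656 in normal liver. For Epcam and Sox9 neither tumour group overlapped normal liver. The 6 stellate and fibroblast markers summed to 70.3 to 93.4 FPKM in Akt/Nras/Foxo1AAA tumours, 114 to 142 in Akt/Nras tumours, against 13.2 to 15.0 in normal liver. Of these, 4 were called higher and 1 lower in either tumour group, and at equal totals 5 were higher and 0 lower. The 5 endothelial markers summed to 22.9 to 27.7 FPKM in Akt/Nras/Foxo1AAA tumours, 24 to 32.0 in Akt/Nras tumours, against 13.1 to 14.8 in normal liver. Only 3 of the 5 were called higher in either tumour group, with 0 lower, and at equal totals all 5 were higher. The 6 macrophage markers summed to 214 to 239 FPKM in Akt/Nras/Foxo1AAA tumours, 131 to 249 in Akt/Nras tumours, against 110 to 163 in normal liver, which overlapped the Akt/Nras tumours. In Akt/Nras/Foxo1AAA tumours 4 of the 6 were higher, and in Akt/Nras tumours 4 were higher while Clec4f (-1.25) and Cd5l (-0.91), markers of Kupffer cells, were lower as deposited and not called at equal totals. The 4 neutrophil markers summed to 7.87 to 27.4 FPKM in Akt/Nras/Foxo1AAA tumours, 12.2 to 27.8 in Akt/Nras tumours, against 0.748 to 3.85 in normal liver, with 1 of them at 0 in all normal livers. T and B cell markers summed to at most 1.70 FPKM in any library, and none passed the filter. In such bulk tissue fewer cells of a type and less RNA per cell cannot be told apart, and the part of these cell types in the differences of the 10 genes was not tested.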

How the data were processed

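RNA was sequenced from 3 Akt/Nras/Foxo1AAA tumours, 3 Akt/Nras tumours and 4 normal livers, grouped by their titles. Per the labels' protocols, RNA was taken with a column kit and libraries were made after either polyA selection or rRNA depletion. The authors deposited FPKM values per gene and library, per the file headers. FastQC 0.11.7 and GRCm38 stand in the submitters' processing notes without a role. Aligner, counter and annotation release were not given in the sources used here, and the table's coordinates are not GRCm38.

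FPKM times gene length gave whole reads within 0.02 reads for 100% of values. The deposited FPKM were not rescaled further for the main fit, and their totals differ between groups. Genes with at least 1 FPKM in at least 3 libraries (12439 of 56748) entered 1 fit of log2(FPKM + 1) over all 10 libraries, with a mean per group (limma 3.58.1 with a variance trend, R 4.3.3; two-sided; Benjamini-Hochberg over all tested genes). Intervals are at 95%. The fit was tested on simulated data. Nothing in the labels says that the same replicate numbers pair libraries of different groups. Over 9 such pairs the correlation of deviations from the group means was -0.17 to 0.11. With so few libraries per group this cannot exclude a pairing that the labels leave out.

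The members and gene lists were chosen with earlier results of these data known. All members are named; from each list of other genes, up to 2 called genes per direction and comparison with the largest change were taken and some of them named. Alternatives were pseudocounts, filters, scalings, array weights, a replicate block, smaller fits, leaving out each library and, chosen after seeing the data, limma voom on the recovered reads and read ratios without each library. The cell type markers named singly, and Bmi1 and Ezh2 against normal liver, were also chosen after their values were seen.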

Additional observations from a re-analysis of the deposited data

Results flagged for a closer look

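Cdkn2c in normal liver had 1 library far from the others. Replicate 4 held 3.08 FPKM, whereas the other normal livers held 4.19 to 4.29 FPKM, and its gap to the nearest was 0.916 of the group's range. Chance flags about 1 in 20 groups of this kind, and 10 genes were looked at in this group of 4 libraries. Without that library Cdkn2c was still called higher in both tumour groups than in normal liver.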

How the results depend on the processing

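Against normal liver, members called higher stayed at 7 to 9 in Akt/Nras/Foxo1AAA tumours and at 8 or 9 in Akt/Nras tumours under all settings run. Members called lower went to 0 in either tumour group with a minimum of 5 FPKM (9 members tested, without Cdkn1c), at equal totals and when scaling without the 50 most abundant genes, against 1 as reported. Leaving out each library gave 0 to 1 in Akt/Nras tumours, 0 being without replicate 1. Between the tumour groups members called lower in Akt/Nras/Foxo1AAA tumours were 0 as reported, 1 with a minimum of 5 FPKM, at equal totals, with the scaling that omits 50 genes and with voom, 2 with array weights (Cdkn1a and Cdkn1b), and 0 to 2 with a library left out. Without Akt/Nras replicate 3 and with 3 other settings Ccnd3 was called higher in Akt/Nras tumours, and with voom too (limma adjusted p = 0.0137); the cause was not tested. In Akt/Nras/Foxo1AAA minus normal liver Cdkn1b (0.0058 as reported) turned to -0.030 with array weights and -0.045 with the replicate block, and ran from -0.14 to 0.11 with a library left out. In Akt/Nras/Foxo1AAA minus Akt/Nras Ccnd2 turned to -0.10 at equal totals, or 0.11 relative to the median of all genes. With a library left out it ran from -0.016 to 0.21 there, Ccnd1 from -0.33 to 0.085 and Cdkn1c from -0.30 to 0.0081. None of these was called. The replicate block, for which the labels state no pairing, changed no call of a member. It took the genes called between the tumour groups to 468, against 1500. Those were 923 without a filter, 3668 with array weights, 3890 at equal totals, 323 with the 6 tumours alone, and 542 (without Akt/Nras/Foxo1AAA replicate 1) to 1939 with a library left out; a minimum of 5 FPKM, which tests fewer genes, gave 5027 and 5372 for Akt/Nras/Foxo1AAA and Akt/Nras tumours against normal liver, where 7874 and 8587 were called. With the scaling that omits 50 genes, 6845 were higher and 1916 lower in Akt/Nras/Foxo1AAA tumours, 7489 and 2195 in Akt/Nras tumours, and 803 and 1239 between the tumour groups. The planned count models were not run, because the deposited values are FPKM. Depth limits Cdkn2a and Cdkn2b in normal liver, at 9 and 10 reads in all.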
